A study of Mus musculus with 12 samples.

Results

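Expression of 10 Fc receptor and inhibitory immune receptor genes was examined in myeloid-derived suppressor cells (MDSCs) from mouse liver tumors. The genes were chosen by symbol and were all found among the 24346 gene symbols of each library: the IgG receptors Fcgr1, Fcgr2b, Fcgr3 and Fcgr4, the adaptors Fcer1g and Tyrobp, the inhibitory receptors Sirpa and Pirb, and the C-type lectins Clec4d and Clec4e. All 10 passed the filter on low values in every comparison. The choice was made with earlier results of these data known, so counts set beside shares of all genes are descriptive. As background, Fc gamma receptors bind the constant part of IgG and let myeloid cells respond to antibody-coated targets. Fcgr1, Fcgr3 and Fcgr4 are activating and signal through the immunoreceptor tyrosine-based activation motif (ITAM) of the common gamma chain, the product of Fcer1g. Fcgr2b, Sirpa and Pirb carry immunoreceptor tyrosine-based inhibitory motifs (ITIMs), which recruit phosphatases and dampen that signal.

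The study asked how inhibitors of the class I histone deacetylases HDAC1-3 act on MDSCs. Hepa 1-6 hepatoma cells were injected into the liver of wild-type female C57BL/6J mice aged 6 to 8 weeks, and mice with more than 20% MDSCs in blood were kept. Vehicle, MS-275 or CXD101, each inhibitor at 5 mg/kg, was injected intraperitoneally once a day for 10 days from 10 days after inoculation, and tumors were taken on day 21. Cells from the tumors were sorted into monocytic MDSCs (M-MDSCs, CD11b+Ly-6ChiLy-6G-) and polymorphonuclear MDSCs (PMN-MDSCs, CD11b+Ly-6CintLy-6G+), which gave 6 groups of 2 libraries and 12 libraries in all. The schedule is the one given for the tumor model. The RNA-seq methods describe M-MDSCs only, so the PMN-MDSC libraries were taken to follow the same schedule. The study describes the replicates of its MDSC expression data as biological, and neither the labels nor the methods say how many mice went into a library, so p-values measure the spread between these libraries. The mice were treated as a whole, so an effect on the sorted cells and an effect through the tumor cannot be told apart. In bulk RNA, fewer cells of a type and less RNA per cell cannot be told apart either.

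Expression is given as FPKM, a read density per length of transcript and per read sequenced, so that levels can be compared between genes. The files hold no counts. From the steps between low FPKM values, the depth was estimated at 8.32 to 10.6 M reads in M-MDSC libraries and 6.92 to 8.07 M in PMN-MDSC libraries. S100a8 and S100a9, the abundant neutrophil calgranulins, took 1.78% to 4.28% of summed FPKM in M-MDSC libraries, 10.2% and 13.7% in vehicle PMN-MDSC libraries and 27.3% to 30.9% in treated PMN-MDSC libraries. Ly6c2, which encodes the sorting antigen Ly-6C, was at 1306 to 1360 FPKM in vehicle M-MDSCs and 455 to 511 in vehicle PMN-MDSCs. It was higher with treatment, at 2395 to 2447 in M-MDSCs and 1487 to 1677 in PMN-MDSCs with MS-275. With CXD101 it was at 2041 to 2110 and 1418 to 1628, so treated PMN-MDSCs were above vehicle M-MDSCs. Csf3r, the neutrophil growth factor receptor, was at 8.75 to 10.5 in vehicle M-MDSCs and 214 to 237 in vehicle PMN-MDSCs. The monocyte genes Ccr2 and Csf1r were present in vehicle PMN-MDSCs as well, at 35.7 to 40.7 and 145 to 160 FPKM. In vehicle M-MDSCs they were at 137 to 147 and 122.7 to 123.4, so Csf1r was higher in PMN-MDSCs.

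The genes lie on 5 chromosomes of the mouse genome GRCm38 (GENCODE annotation). Fcgr2b (chr1:170958617-170976547, minus strand), Fcgr4 (chr1:171018920-171029761, plus strand), Fcgr3 (chr1:171051174-171064935, minus strand) and Fcer1g (chr1:171229572-171234365, minus strand) lie within 275.7 kb of each other. Fcgr1 is on another chromosome (chr3:96282909-96293969, minus strand). Clec4d (chr6:123262111-123275265, plus strand) and Clec4e (chr6:123281789-123289870, minus strand) are 6.5 kb apart. Tyrobp (chr7:30413760-30417585, plus strand) and Pirb (chr7:3711409-3720391, minus strand) are far apart on one chromosome, and Sirpa is at chr2:129592835-129632228 on the plus strand. Pirb belongs to a family of close copies: 24.4% of the 101-base windows of its longest coding transcript occur exactly in other genes, among them Pira2. This makes its values uncertain, by an amount that was not measured. The share of such windows was 3.37% for Fcgr3 and 2.26% for Fcgr2b, which share windows with each other, and 0 for the other 7 genes.

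In vehicle-treated tumors, PMN-MDSCs carried more of nearly all these transcripts than M-MDSCs. Of the 10 genes, 8 were called higher and 0 lower in PMN-MDSCs at an adjusted p under 0.05 and a fold change above 1.5, where 17.2% of all genes tested were called higher and 16.8% lower. These and all later calls come from limma on log2(FPKM + 1) with Benjamini-Hochberg adjustment, and fold changes are on that scale. The median log2 fold change of the 10 genes was 1.08, beside -0.01 for all genes. Clec4d differed most, at 41.8 and 38.4 FPKM in the vehicle M-MDSC libraries and 256 and 289 in the vehicle PMN-MDSC libraries (log2 fold change 2.73, adjusted p = 1.31e-08). Fcgr4 followed at 2.38 on the log2 scale, Fcgr2b at 1.74 and Tyrobp at 1.59, and Fcgr3, Fcer1g, Pirb and Sirpa lay between 0.86 and 1.09. Clec4e was higher by 0.37 on the log2 scale (adjusted p = 0.0042), below the fold limit. Fcgr1 was at 25.1 and 24.6 FPKM in M-MDSCs and 24.1 and 23.1 in PMN-MDSCs, a log2 difference of -0.07 with a 95% interval of -0.23 to 0.09.

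The order of levels was Tyrobp, Fcer1g, Fcgr3, Sirpa, Fcgr2b, Pirb, Clec4e, Clec4d, Fcgr1 and Fcgr4 in vehicle M-MDSCs, and no neighbors in that order overlapped between their 2 libraries. Tyrobp stood at 1085 and 1137 FPKM and Fcgr4 at 11.9 and 12.3, at or above 51.2% of the 11662 genes tested over the 12 libraries. In vehicle PMN-MDSCs the order was Tyrobp, Fcer1g, Fcgr3, Sirpa, Fcgr2b, Clec4d, Pirb, Fcgr4, Clec4e and Fcgr1. Sirpa and Fcgr2b overlapped there, at 382 and 397 against 369 and 388 FPKM. The plot of FPKM by library shows each gene on its own scale.

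**Figure D1:**
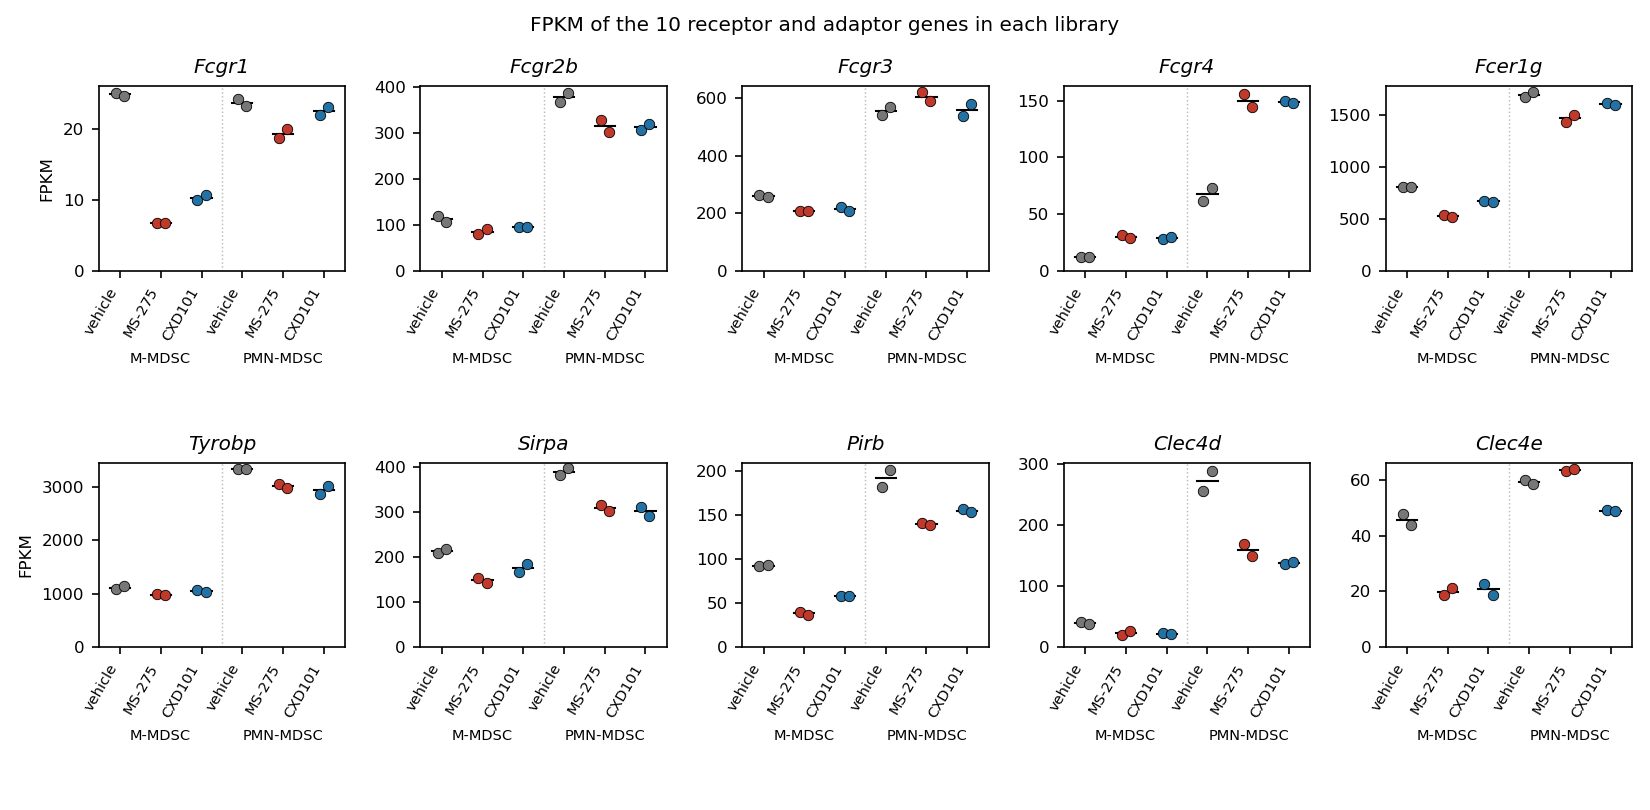
FPKM (y axis, from 0) of each of the 10 genes in the 12 libraries; points are libraries and bars the mean of the 2 libraries of a group, in M-MDSCs (left of the dotted line) and PMN-MDSCs (right), for vehicle, MS-275 and CXD101. Fcgr4 is highest in the 4 treated PMN-MDSC libraries, at 145 to 156 FPKM, and Fcgr1 is lowest in the 2 MS-275 M-MDSC libraries, at 6.66 and 6.72.

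In M-MDSCs the inhibitors raised Fcgr4 and lowered Fcgr1, Pirb, Clec4d and Clec4e. With MS-275, 1 gene was called higher, Fcgr4, and 5 lower, the other 4 and Fcer1g, where 10.1% of 11078 genes were called higher and 7.32% lower. With CXD101, Fcgr4 was called higher and the 4 genes lower, where 5.14% of genes were called higher and 3.0% lower. The median log2 fold change of the 10 genes was -0.57 with MS-275 and -0.28 with CXD101, beside -0.06 and -0.02 for all genes. By the adjusted p alone, 9 genes were lower with MS-275 and 7 with CXD101, where 27.3% and 12.2% of all genes were. All 10 genes were free of overlap between vehicle and treated M-MDSC libraries for both inhibitors, 9 of them below vehicle, where 43.8% of genes lay below with MS-275 and 34.4% with CXD101. Both inhibitors were compared with the same vehicle libraries.

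In PMN-MDSCs 2 of the genes passed. Fcgr4 was called higher and Clec4d lower with either inhibitor, where 14.6% and 14.2% of 11184 genes were called higher and lower with MS-275, and 11.9% and 9.54% with CXD101. The median log2 fold change of the 10 genes was -0.23 with either inhibitor, beside -0.03 for all genes. By the adjusted p alone, 6 genes were lower with each inhibitor, where 28.5% and 23.9% of all genes were. When each library was rescaled to the same FPKM total, which moved the median of all genes by -0.321 and -0.322 on the log2 scale, 5 of the 10 genes were called lower with each inhibitor, where 32.0% and 28.7% of all genes were. These were Clec4d, Fcgr2b, Sirpa and Pirb with either inhibitor, with Fcgr1 for MS-275 and Clec4e for CXD101. Apart from Clec4d, none of them was called lower under another scaling, such as a total without S100a8 and S100a9. Fcgr4 was still called higher under that scaling, at 0.80 and 0.79.

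**Figure D2:**
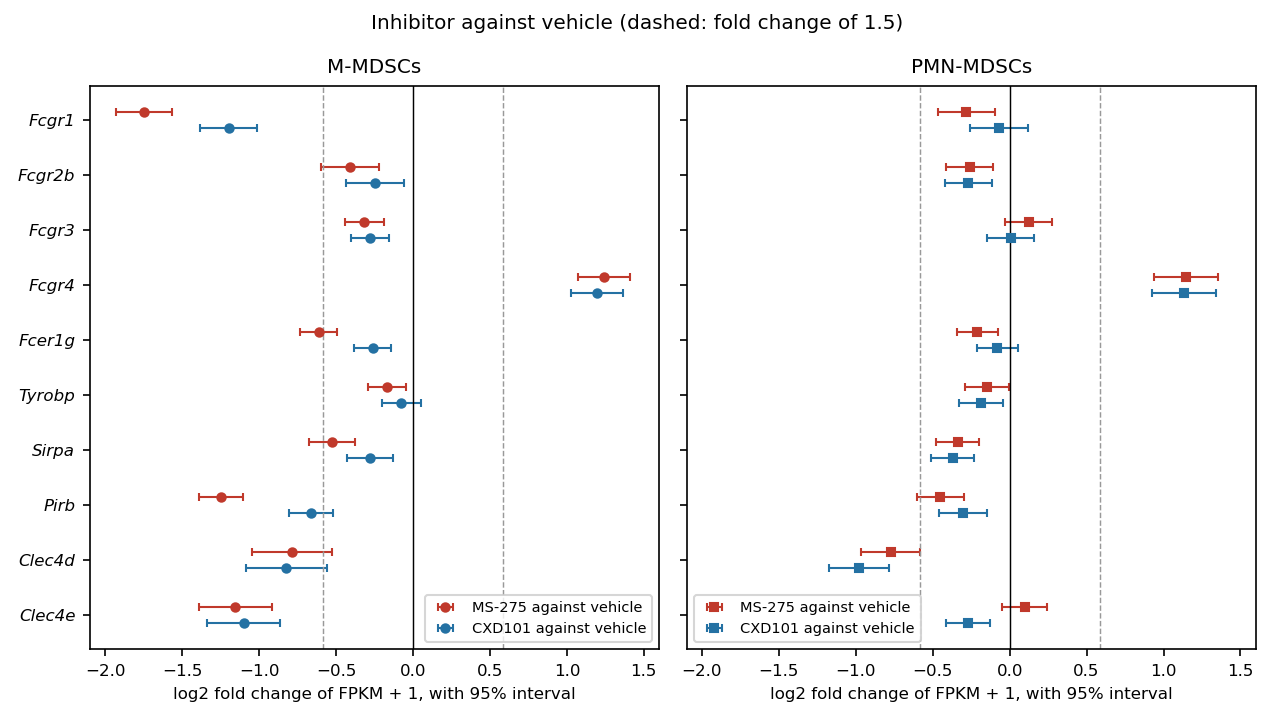
log2 fold change of FPKM + 1 (x axis) of each gene with MS-275 (red) and CXD101 (blue) against vehicle in M-MDSCs (left) and PMN-MDSCs (right); points are limma estimates from 2 libraries a group, bars are 95% intervals and dashed lines mark a fold change of 1.5. Fcgr4 lies between 1.13 and 1.24 in all 4 comparisons, and Fcgr1 lies at -1.75 and -1.20 in M-MDSCs and at -0.28 and -0.07 in PMN-MDSCs.

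Among the activating IgG receptors, Fcgr4 rose and Fcgr1 fell in M-MDSCs. The 250 bases before their RefSeq transcript starts (GRCm38.p6) are shown 5′ to 3′ on the gene's strand, since these are the IgG receptor genes with the largest changes in M-MDSCs, Fcgr4 at chr1:171018676-171018925 and Fcgr1 at chr3:96293970-96294219.
Fcgr4: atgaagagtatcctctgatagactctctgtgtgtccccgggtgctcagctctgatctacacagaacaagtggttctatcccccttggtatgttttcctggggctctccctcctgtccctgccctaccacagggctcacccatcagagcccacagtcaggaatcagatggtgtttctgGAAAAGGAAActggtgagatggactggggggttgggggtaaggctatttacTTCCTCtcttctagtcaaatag
Fcgr1: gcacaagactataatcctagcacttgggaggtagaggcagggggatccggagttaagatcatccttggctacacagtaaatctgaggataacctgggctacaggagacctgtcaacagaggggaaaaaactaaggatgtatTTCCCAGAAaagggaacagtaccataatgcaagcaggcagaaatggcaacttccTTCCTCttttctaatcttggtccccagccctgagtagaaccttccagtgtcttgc
Capitals mark matches to motifs searched on both strands. The PU.1 core GAGGAA, read here as TTCCTC, begins 22 bases before the start of Fcgr4 and 55 before that of Fcgr1, and 23.3% of all 32851 promoter windows in the RefSeq table hold it. A pattern of the interferon-stimulated response element, GAAA followed after any 2 bases by GAAA, begins 73 bases before the start of Fcgr4, and 2.98% of windows hold it. TTCNNNGAA, the interferon gamma-activated site pattern bound by STAT factors, begins 109 bases before the start of Fcgr1, and 7.02% of windows hold it. A match to letters is a description and shows no binding.

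Fcgr4 encodes Fc gamma receptor IV, an activating receptor of mouse monocytes and neutrophils. In M-MDSCs it stood at 11.9 and 12.3 FPKM with vehicle, 31.2 and 28.9 with MS-275, and 28.3 and 29.6 with CXD101. In PMN-MDSCs it stood at 61.6 and 73.4 with vehicle, 156 and 145 with MS-275, and 149 and 148 with CXD101. Treated libraries were above vehicle libraries in each subset without overlap, and the 2 inhibitors overlapped. The log2 fold change was 1.24 ± 0.0738 (SE) with MS-275 (limma, adjusted p = 1.09e-05) and 1.19 with CXD101 (adjusted p = 4.63e-05) in M-MDSCs. In PMN-MDSCs it was 1.15 ± 0.0895 (adjusted p = 4.84e-05) and 1.13 (adjusted p = 7.82e-05). In treated M-MDSCs, Fcgr4 remained below its level in vehicle PMN-MDSCs.

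Genes of the PMN-MDSC list also moved in the same libraries. Of 12 listed markers, 11 were tested, and 5 were called higher and 3 lower in M-MDSCs with MS-275, 5 and 1 with CXD101. The genes called higher were S100a8, S100a9, Csf3r, Cxcr2 and Mmp8 with either inhibitor, and those called lower were Mmp9 with either and the granule protein genes Camp and Ltf with MS-275. The summed FPKM of the list was 11710 and 12370 in vehicle M-MDSCs and 22260 to 26280 in the treated ones, of which S100a8 and S100a9 made up 90.2% to 94.1%. Csf3r was at 8.75 and 10.5 FPKM with vehicle, 24.3 and 24.9 with MS-275, and 20.6 and 21 with CXD101. Cxcr2, a neutrophil chemokine receptor, was at 2.81 and 3.11, 19.7 and 20.8, and 7.75 and 8.0. Ltf, which encodes lactoferrin, was at 73.3 and 102, 29.1 and 31.8, and 82.1 and 92.2, and Mmp9 at 7.27 and 10.4, 2.61 and 4.65, and 4.32 and 4.95. In PMN-MDSCs, 8 were called higher and 1 lower with MS-275, 8 and 0 with CXD101, beside 14.6% and 14.2%, and 11.9% and 9.54%, of all genes. The sum of the list there, 88.7% to 93.7% of it S100a8 and S100a9, went from 72400 and 98440 to 256400 to 296900. The part of these genes in the Fcgr4 result was not tested.

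Fcgr1 encodes the high-affinity IgG receptor CD64, a marker of monocytes and macrophages. In M-MDSCs it stood at 25.1 and 24.6 FPKM with vehicle, 6.72 and 6.66 with MS-275, and 9.89 and 10.6 with CXD101. In PMN-MDSCs it stood at 24.1 and 23.1 with vehicle, 18.7 and 19.9 with MS-275, and 21.9 and 23.1 with CXD101. The 3 groups were separate in M-MDSCs, with MS-275 lowest. In M-MDSCs Fcgr1 fell by 1.75 ± 0.0801 (SE) on the log2 scale with MS-275 (limma, adjusted p = 3.71e-06) and by 1.20 with CXD101 (adjusted p = 7.00e-05). In PMN-MDSCs the log2 fold change was -0.28 with MS-275 (adjusted p = 0.0209), within the fold limit, and -0.07 with CXD101 (adjusted p = 0.524). With libraries rescaled to the same total, the MS-275 value was -0.62 (adjusted p = 4.87e-04) and passed the limit, which it did under no other scaling.

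Macrophage markers moved as well. Of 14 listed, 10 were tested in M-MDSCs, and 0 were called higher and 6 lower with MS-275, 0 and 3 with CXD101, and in PMN-MDSCs 1 and 8, and 0 and 8. Their summed FPKM in M-MDSCs was 643 and 656 with vehicle, 484 and 515 with MS-275, and 591 and 593 with CXD101. In PMN-MDSCs it was 1173 and 1360 with vehicle, 481 and 524 with MS-275, and 540 and 581 with CXD101. The mannose receptor Mrc1 was at 79.9 to 81.3, 13.5 to 16.4 and 65.0 to 77.4 FPKM in the 3 M-MDSC groups. Adgre1, of the same list, went the other way without being called, at 38.9 to 41.5, 53.9 to 58.4 and 42.3 to 47.6. Timd4 and Clec4f, which mark liver-resident macrophages, were listed at 0 in all 12 libraries, and Vsig4 and Cd5l were at or near 0. The part of macrophage-type genes in the Fcgr1 result was not tested.

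Fcgr3 encodes Fc gamma receptor III and was the most abundant of the IgG receptors in every group. It stood at 265 and 255 FPKM in vehicle M-MDSCs, at 209 and 208 with MS-275, and at 220 and 209 with CXD101. The log2 fold changes of -0.32 (limma, adjusted p = 0.002) and -0.28 (adjusted p = 0.00856) did not reach the fold limit. In PMN-MDSCs the 6 libraries spanned 537 to 621 FPKM, with log2 fold changes of 0.12 (adjusted p = 0.153) with MS-275 and 0.01 (adjusted p = 0.936) with CXD101. Both signs turn negative when libraries are rescaled to the same total, at -0.23 and -0.34.

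Fcgr2b encodes the inhibitory Fc gamma receptor, the counterweight to the other 3. It stood at 120 and 106 FPKM in vehicle M-MDSCs, 79.3 and 90.2 with MS-275, and 94.9 and 94.7 with CXD101. In PMN-MDSCs it stood at 369 and 388, 329 and 303, and 307 and 321. Vehicle libraries were above treated ones throughout, but no difference in FPKM as deposited reached the fold limit. In M-MDSCs the log2 fold change was -0.41 with MS-275 (limma, adjusted p = 0.00435) and -0.25 with CXD101 (adjusted p = 0.0642), and in PMN-MDSCs it was -0.26 (adjusted p = 0.0123) and -0.27 (adjusted p = 0.013). With libraries rescaled to the same total, the PMN-MDSC values were -0.61 and -0.62 and both were called, but under no other scaling.

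Within a library, the share of each receptor in the summed FPKM of the 4 IgG receptors does not depend on a factor that multiplies a whole library. In M-MDSCs the share of Fcgr4 was 2.96% ± 0.192 (SD, n = 2) with vehicle, 9.10% ± 0.643 with MS-275 and 8.32% ± 0.436 with CXD101. The share of Fcgr1 was 6.07% ± 0.168, 2.03% ± 0.0462 and 2.95% ± 0.209. Fcgr1 thus exceeded Fcgr4 in vehicle M-MDSCs, with a ratio of 2.05 ± 0.0768, and was below it in treated M-MDSCs, with ratios of 0.223 ± 0.0107 and 0.354 ± 0.00658. In PMN-MDSCs Fcgr4 took 6.58% ± 0.544 with vehicle, 13.8% ± 0.108 with MS-275 and 14.3% ± 0.637 with CXD101.

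The share of the inhibitory receptor Fcgr2b in M-MDSCs was 27.5% ± 1.37 (SD, n = 2) with vehicle, 25.7% ± 1.92 with MS-275 and 27.2% ± 0.49 with CXD101, and these groups overlapped. In PMN-MDSCs it was 36.9% ± 0.227 with vehicle, 29.0% ± 0.414 with MS-275 and 30.1% ± 0.196 with CXD101. The ratio of the 3 activating receptors to Fcgr2b was 1.71 ± 0.0166 in vehicle PMN-MDSCs, 2.45 ± 0.0493 with MS-275 and 2.32 ± 0.0216 with CXD101, without overlap. In M-MDSCs that ratio was 2.64 ± 0.181, 2.91 ± 0.293 and 2.67 ± 0.0662, and the groups overlapped. With 2 libraries a group, an exact permutation test cannot reach p below 0.05, so these shares and ratios are given without a test.

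**Figure D3:**
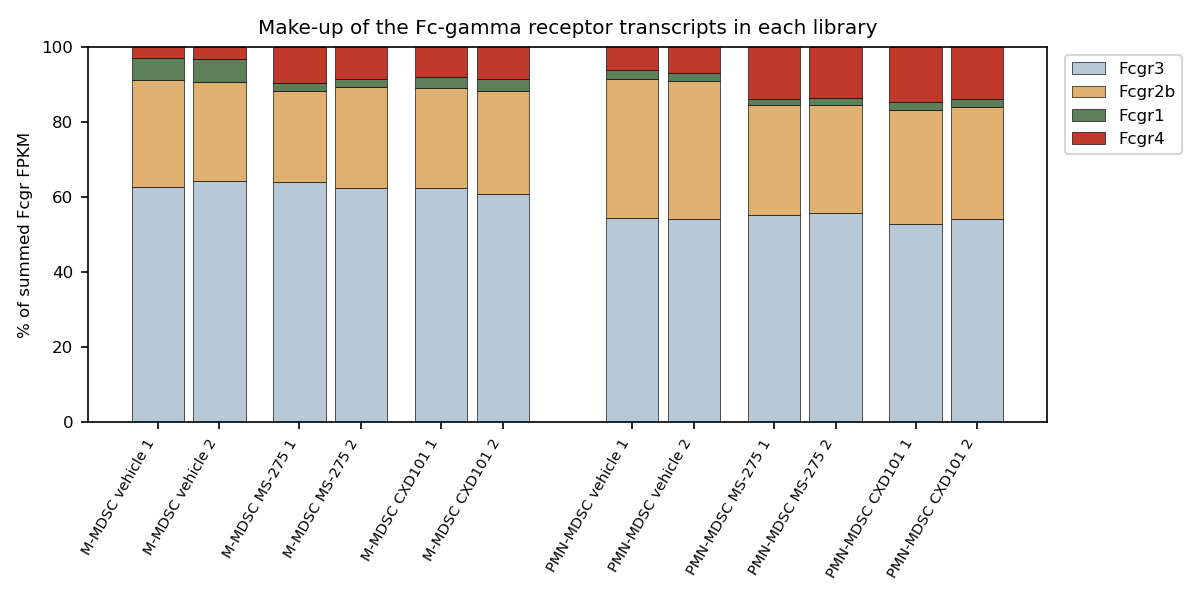
Share of Fcgr3, Fcgr2b, Fcgr1 and Fcgr4 in the summed FPKM of the 4 IgG receptor genes (y axis, %) in each of the 12 libraries. The Fcgr4 segment is 2.82% and 3.09% in vehicle M-MDSCs and 8.01% to 9.56% in treated ones, and 6.19% and 6.96% in vehicle PMN-MDSCs and 13.7% to 14.7% in treated ones.

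The adaptors were the most abundant of the 10 transcripts. Fcer1g, the gamma chain that the activating Fc receptors need for signaling and surface display, stood at 809 and 805 FPKM in vehicle M-MDSCs, 541 and 514 with MS-275, and 677 and 667 with CXD101. The 3 groups did not overlap. It fell by 0.61 ± 0.0524 (SE) on the log2 scale with MS-275 (limma, adjusted p = 5.85e-05), just past the fold limit, and the call was lost under 4 of 4 other scalings and without MS-275 replicate 2 (-0.57, adjusted p = 5.87e-04). With CXD101 the log2 fold change was -0.26 (adjusted p = 0.0093). In PMN-MDSCs Fcer1g stood at 1677 and 1721 FPKM with vehicle, 1439 and 1501 with MS-275, and 1614 and 1600 with CXD101, with log2 fold changes of -0.21 (adjusted p = 0.0173) and -0.08 (adjusted p = 0.289).

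Tyrobp encodes DAP12, the ITAM adaptor of many other activating myeloid receptors. Its FPKM was 1085 and 1137 in vehicle M-MDSCs, 998 and 976 with MS-275, and 1074 and 1033 with CXD101. In PMN-MDSCs it was 3339 in both vehicle libraries, 3062 and 2974 with MS-275, and 2870 and 3012 with CXD101. Its log2 fold changes lay between -0.08 and -0.18 in the 4 comparisons and none reached the fold limit. Under quantile scaling the MS-275 value in PMN-MDSCs was -0.65 (limma, adjusted p = 4.53e-05) and was called. The ratio of Tyrobp to Fcer1g in M-MDSCs was 1.38 ± 0.0514 (SD, n = 2) with vehicle, 1.87 ± 0.0394 with MS-275 and 1.57 ± 0.0262 with CXD101.

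Of the ITIM receptors, Pirb fell in M-MDSCs and Sirpa did not reach the fold limit in FPKM as deposited. Pirb encodes paired immunoglobulin-like receptor B, which binds MHC class I molecules and restrains myeloid activation. Its promoter window (RefSeq, GRCm38.p6, chr7:3720383-3720632, 5′ to 3′ on the minus strand) is shown because it holds 3 matches to the PU.1 core, which lie 185, 120 and 87 bases before the start, and 1 to the C/EBP pattern TTGCNNCAA, found in 1.74% of windows.
Pirb: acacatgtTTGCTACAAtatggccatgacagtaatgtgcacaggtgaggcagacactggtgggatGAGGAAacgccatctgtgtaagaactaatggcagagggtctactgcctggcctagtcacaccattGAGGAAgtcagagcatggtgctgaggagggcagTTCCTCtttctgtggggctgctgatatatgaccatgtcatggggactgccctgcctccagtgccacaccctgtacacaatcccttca
Of the 10 genes, 8 had entries in the table, with 9 windows, and 7 windows held the PU.1 core, beside 23.3% of all windows. The windows of Fcgr3 overlap and hold the same match, which is counted in each. The AP-1 pattern TGANTCA was in 0 of the 9 windows and in 6.75% of all windows.

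Pirb stood at 91.7 and 93.2 FPKM in vehicle M-MDSCs, 39.8 and 36.9 with MS-275, and 57.8 and 58.2 with CXD101. The 3 groups were separate, with MS-275 lowest. It fell by 1.25 ± 0.0617 (SE) on the log2 scale with MS-275 (limma, adjusted p = 4.49e-06) and by 0.66 with CXD101 (adjusted p = 2.94e-04). In PMN-MDSCs it stood at 182 and 201 FPKM with vehicle, 140 and 139 with MS-275, and 156 and 153 with CXD101, and the log2 fold changes of -0.45 (adjusted p = 9.32e-04) and -0.30 (adjusted p = 0.00788) were within the fold limit. Rescaled to the same total they were -0.80 and -0.65 and were called, but under no other scaling. Pira2, an activating copy that shares sequence with Pirb, fell in M-MDSCs too, from a mean of 21.3 FPKM to 5.55 with MS-275 and 8.35 with CXD101. Reads of the 2 genes may have been split between them.

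Sirpa encodes the receptor of CD47, through which target cells hold back phagocytosis. It stood at 209 and 218 FPKM in vehicle M-MDSCs, 153 and 144 with MS-275, and 168 and 184 with CXD101. In PMN-MDSCs it stood at 382 and 397, 314 and 301, and 311 and 292. Vehicle libraries were above all treated libraries in each subset. In M-MDSCs the log2 fold change was -0.53 with MS-275 (limma, adjusted p = 4.08e-04) and -0.28 with CXD101 (adjusted p = 0.0187), beside -0.34 (adjusted p = 0.00247) and -0.37 (adjusted p = 0.00215) in PMN-MDSCs. Rescaled to the same total, the PMN-MDSC values were -0.69 and -0.72 and both were called, but under no other scaling.

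The lectins Clec4d and Clec4e, neighbors on chromosome 6 whose products MCL and Mincle bind mycobacterial glycolipids and signal through the gamma chain, both fell in M-MDSCs, and in PMN-MDSCs Clec4d was called and Clec4e was not, in FPKM as deposited. In M-MDSCs Clec4e stood at 47.7 and 43.6 FPKM with vehicle, 18.8 and 21.1 with MS-275, and 22.8 and 18.8 with CXD101, and fell by 1.16 (limma, adjusted p = 7.22e-05) and 1.10 (adjusted p = 3.12e-04) on the log2 scale. Clec4d stood at 41.8 and 38.4, 20.1 and 25.8, and 23.3 and 21.1, and fell by 0.79 (adjusted p = 8.63e-04) and 0.82 (adjusted p = 0.00185). In both genes the inhibitor groups overlapped each other and lay below vehicle.

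In PMN-MDSCs Clec4d stood at 256 and 289 FPKM with vehicle, 169 and 149 with MS-275, and 136 and 139 with CXD101. It fell by 0.77 ± 0.083 (SE) on the log2 scale with MS-275 (limma, adjusted p = 1.96e-04) and by 0.98 with CXD101 (adjusted p = 1.10e-04). Clec4e stood at 60.04 and 58.5 with vehicle, 63.1 and 63.9 with MS-275, and 49.1 and 48.7 with CXD101. The estimates were 0.10 on the log2 scale (adjusted p = 0.22) with MS-275 and -0.27 (adjusted p = 0.00978) with CXD101, and with libraries rescaled to the same total they were -0.25 and -0.62, of which the CXD101 value was called (limma, adjusted p = 2.70e-04). The CXD101 change was not called under the other scalings. The ratio of Clec4d to Clec4e in PMN-MDSCs was 4.6 ± 0.475 (SD, n = 2) with vehicle, 2.5 ± 0.237 with MS-275 and 2.81 ± 0.0514 with CXD101.

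The inhibitors were given at the same dose in mg/kg and on the same schedule, and were compared at that dose. Inhibition of the enzymes was not measured in these data, so equal doses need not be equal inhibition. By limma, 0 of the 10 genes were called between MS-275 and CXD101 in either subset, where 4.40% of genes were called in M-MDSCs and 0.805% in PMN-MDSCs. At an unadjusted p under 0.05, 4 genes were lower with MS-275 in M-MDSCs, where 18.2% of all genes were, and in PMN-MDSCs 2 were higher and 1 lower, where 7.30% and 8.06% of all genes were. By the adjusted p over all genes alone, 4 of 10 were lower with MS-275 than with CXD101 in M-MDSCs, where 7.73% of genes were, and these were Pirb at -0.58 on the log2 scale (95% interval -0.73 to -0.44, adjusted p = 0.0015), Fcgr1 at -0.55 (-0.73 to -0.37, adjusted p = 0.00504), Fcer1g at -0.35 (-0.47 to -0.23, adjusted p = 0.00563) and Sirpa at -0.25 (-0.40 to -0.10, adjusted p = 0.0433). With a pseudocount of 0.1 Fcgr1 and Pirb passed the fold limit as well, at -0.61 and -0.60. They also passed it without CXD101 replicate 1, at -0.60 and -0.59, and Pirb did without MS-275 replicate 1, at -0.64. Fcgr4 differed by 0.05 between the inhibitors in M-MDSCs (-0.12 to 0.22), Clec4d by 0.04 (-0.22 to 0.30) and Clec4e by -0.06 (-0.29 to 0.18). In PMN-MDSCs, 1 gene passed by the adjusted p alone, where 0.680% of genes were higher, and this was Clec4e, higher with MS-275 by 0.37 (0.22 to 0.51, adjusted p = 0.0458). Fcgr4 differed there by 0.01 (-0.20 to 0.22). The pairs tested were 2 per gene, and p-values were adjusted over all genes of each comparison.

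Whether the subsets responded differently was tested as an interaction in a fit of all 12 libraries. With MS-275, 3 of the 10 genes were called with a higher log2 fold change in PMN-MDSCs and 0 with a lower one, where 8.65% and 9.48% of 11662 genes were. These were Fcgr1, which differed by 1.47 ± 0.102 (SE; limma, adjusted p = 9.80e-06), Clec4e by 1.25 ± 0.127 (adjusted p = 8.64e-05) and Pirb by 0.80 ± 0.0866 (adjusted p = 1.23e-04). Each of them fell in M-MDSCs and stayed within the fold limit in PMN-MDSCs in FPKM as deposited. Among the scalings, only rescaling to the same total took Fcgr1 and Pirb past it there, at -0.62 and -0.80. With CXD101, 2 of the 10 genes were called, Fcgr1 at 1.13 (adjusted p = 7.55e-05) and Clec4e at 0.83 (adjusted p = 0.00125), where 7.31% of genes were called in that direction and 6.59% in the other. With libraries rescaled to the same total, which moved the median of all genes by -0.357 and -0.309 in these contrasts, the Pirb difference fell to 0.42 with MS-275 and that of Clec4e to 0.50 with CXD101, both within the fold limit. For Fcgr4 the difference in response was -0.10 with MS-275 (95% interval -0.36 to 0.16, adjusted p = 0.576) and -0.06 with CXD101 (-0.32 to 0.20, adjusted p = 0.756). For Clec4d it was 0.01 (-0.33 to 0.36) and -0.15 (-0.50 to 0.19).

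**Figure D4:**
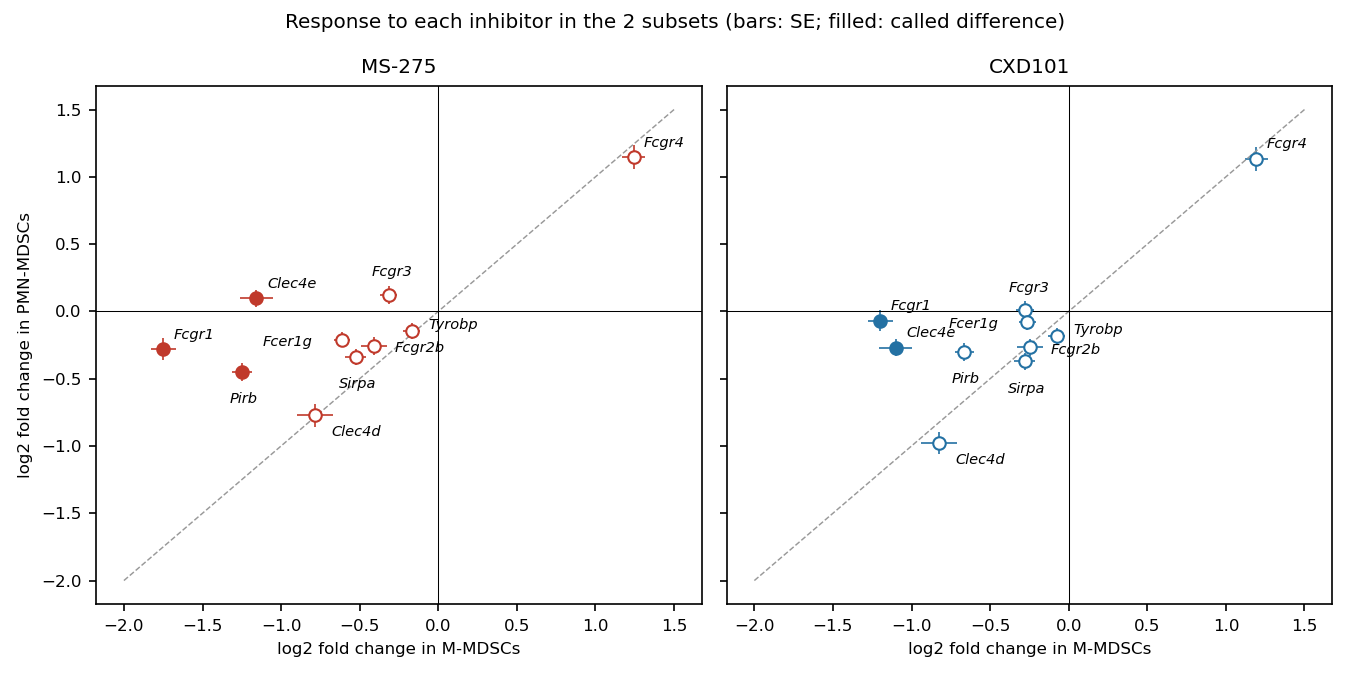
log2 fold change of FPKM + 1 against vehicle in M-MDSCs (x axis) and in PMN-MDSCs (y axis) for each gene, with MS-275 (left) and CXD101 (right); bars are standard errors, the dashed line marks equal changes and filled points are genes whose difference between the subsets was called. Fcgr4 lies near the dashed line in both plots, and Fcgr1 and Clec4e lie above it, by 1.47 and 1.25 with MS-275.

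The genes around these receptors were examined in 4 lists, chosen by function, also with earlier results of these data known. The ITAM signaling list held 38 kinases, adaptors and enzymes downstream of activating receptors. In M-MDSCs 35 were tested, and 3 were called higher and 8 lower with MS-275, 1 and 3 with CXD101, where 10.1% and 7.32%, and 5.14% and 3.0%, of all genes were. The Src-family kinase Fgr fell from 35.3 and 35.7 FPKM to 9.28 and 9.02 with MS-275 and 15.9 and 15.4 with CXD101 (log2 fold changes -1.85 and -1.13). Pik3r5, a regulatory subunit of phosphoinositide kinase, fell by 1.07 and 0.63 on the log2 scale. Hcst, which encodes the adaptor DAP10, rose by 0.76 with either inhibitor, and Plcg1 by 1.07 and Pik3ap1 by 0.98 with MS-275. The list's median was -0.16 with each inhibitor, beside -0.06 and -0.02 for all genes. In PMN-MDSCs 38 were tested, with 3 called higher and 7 lower with MS-275 and 1 and 5 with CXD101, where 14.6% and 14.2%, and 11.9% and 9.54%, of all genes were, and Lat2, a membrane adaptor, fell from a mean of 32.5 FPKM to 11.8 and 12.8. In vehicle groups 15 of 38 were called higher and 0 lower in PMN-MDSCs, where 17.2% and 16.8% of all genes were, with Fgr at 145 FPKM against 35.5.

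The ITIM signaling list held 15 phosphatases and adaptors of inhibitory receptors, all tested. In M-MDSCs 1 of 15 was called higher and 3 lower with MS-275, 0 and 1 with CXD101, beside 10.1% and 7.32%, and 5.14% and 3.0%, of all genes. Ptpn6, which encodes SHP-1, the phosphatase recruited by Pirb and Sirpa, fell from 271 and 270 FPKM to 151 and 155 with MS-275 (log2 fold change -0.82, adjusted p = 1.85e-05). Its CXD101 libraries stood at 215 and 204 FPKM and were not called. Dok2 fell from 51.6 and 53.0 FPKM to 17.1 and 19.1 with MS-275 and 31.5 in both CXD101 libraries, and Dok3 fell by 0.78 on the log2 scale with MS-275, while the lipid phosphatase gene Inppl1 rose by 0.91. In PMN-MDSCs 2 of 15 were called higher and 2 lower with MS-275, near the 14.6% and 14.2% of all genes, and 1 and 2 with CXD101, beside 11.9% and 9.54%, with Dok2 falling again (-0.91 and -0.61) and Pag1 rising (0.93 and 0.64). The list's median was -0.20 and -0.19 in M-MDSCs and 0.07 and 0.04 in PMN-MDSCs.

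Other Fc receptors were 15 in number, and only 4 passed the filter in M-MDSCs, of which 0 were called with either inhibitor by limma and 1, Fcgrt, was higher at an unadjusted p under 0.05. In PMN-MDSCs 7 were tested, with 2 called higher and 2 lower with MS-275 and 2 and 1 with CXD101, beside 14.6% and 14.2%, and 11.9% and 9.54%, of all genes. Fcgrt, the neonatal Fc receptor that recycles IgG, rose in PMN-MDSCs from 17.6 and 13.1 FPKM with vehicle to 49.6 and 54.6 with MS-275 and 54.8 and 52.7 with CXD101 (log2 fold changes 1.71 and 1.76, adjusted p = 3.80e-05 and 5.13e-05). In M-MDSCs it stood at 24.3 and 24.4 FPKM with vehicle, 35.0 and 31.6 with MS-275, and 34.7 and 38.4 with CXD101, and was not called.

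The fourth list held 60 other paired and inhibitory receptors, of which 59 were found. In M-MDSCs 48 were tested, and 14 were called higher and 8 lower with MS-275, 10 and 6 with CXD101, beside 10.1% and 7.32%, and 5.14% and 3.0%, of all genes. In PMN-MDSCs 50 were tested, with 16 called higher and 11 lower, and 12 and 9, beside 14.6% and 14.2%, and 11.9% and 9.54%. In vehicle groups 34 of 51 were called higher in PMN-MDSCs and 1 lower, Clec2i, where 17.2% and 16.8% of all genes were, with a median log2 fold change of 1.12. Pecam1, an ITIM receptor of leukocytes and endothelium, rose with either inhibitor in both subsets, from 9.44 and 8.80 FPKM to 35.7 and 33.1 with MS-275 and 26.9 in both CXD101 libraries in M-MDSCs, and from 16 and 16.5 to 55.6 and 58.0, and 51.0 in both, in PMN-MDSCs. Clec7a, the beta-glucan receptor Dectin-1, fell in PMN-MDSCs from 272 and 305 FPKM to 83.9 and 78.7 with MS-275 and 62.9 and 68.9 with CXD101. Mgl2, a galactose-type lectin, fell there from 34.5 and 27.3 to 1.84 and 1.20, and 5.11 and 4.09. Clec4b2, another lectin of the Clec4 family, rose in PMN-MDSCs from a mean of 9.28 FPKM to 25.5 and 34.5. The plot of the lists shows every tested gene of each.

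**Figure D5:**
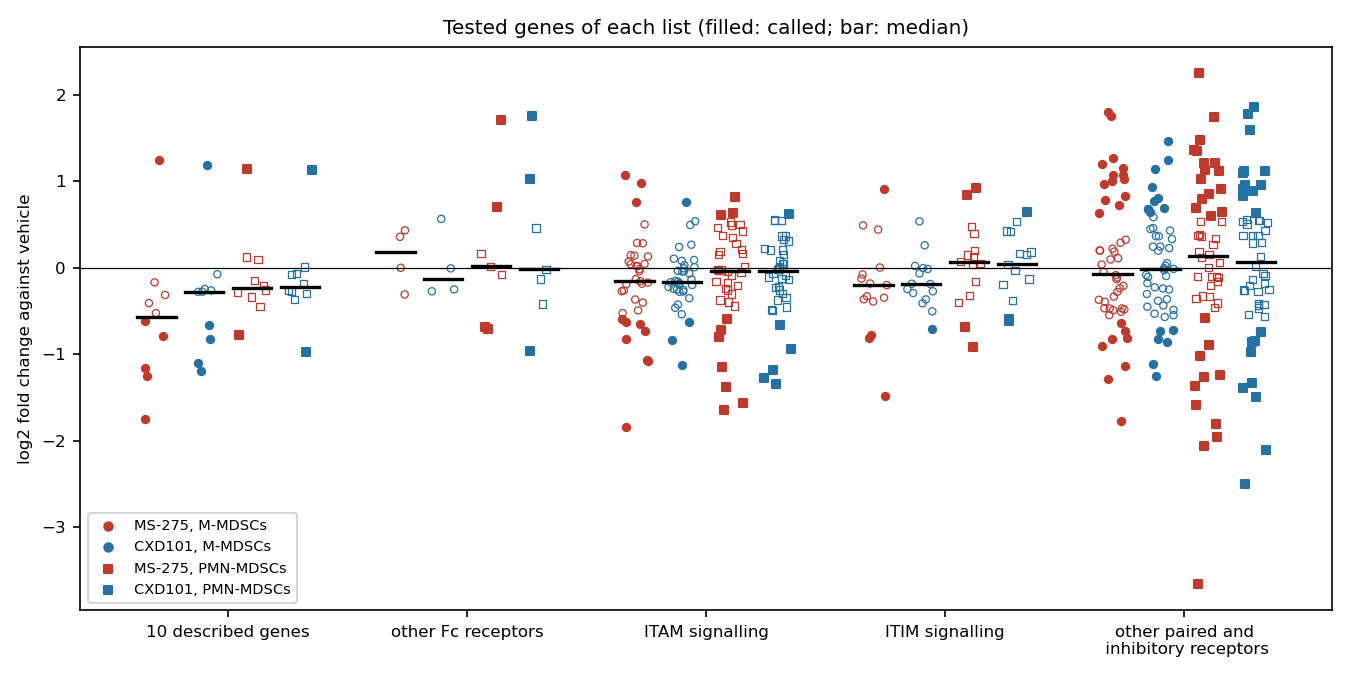
log2 fold change of FPKM + 1 against vehicle (y axis) of each tested gene of the 10 described genes and of 4 lists, with MS-275 (red) and CXD101 (blue) in M-MDSCs (circles) and PMN-MDSCs (squares); filled points were called and bars are medians. The median of the 10 genes is -0.57 with MS-275 and -0.28 with CXD101 in M-MDSCs and -0.23 in PMN-MDSCs, and the largest fall is that of Mgl2 with MS-275 in PMN-MDSCs, at -3.67.

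Likeness of pattern was measured as the Pearson correlation of log2(FPKM + 1) over the 12 libraries, after centering within each subset, across 8420 genes with a mean of at least 5 FPKM. The libraries of a group share treatment, so the values describe the pattern and carry no test. The genes most like Fcgr4 were Itgal (r = 0.989), which encodes an integrin chain, Pecam1 (0.987) and Gal (0.987). Those most like Pirb were Hcls1 (0.992), Fgr (0.991) and Dock2 (0.991), genes of blood cell lineages. Fcer1g was most like Slfn2 (0.985), Pirb (0.983) and Rgs19 (0.983), and Fcgr1 was most like AB124611 (0.991), Foxn2 (0.982) and Wdr1 (0.982). Clec4e was most like the inflammasome gene Nlrp3 (0.968), and Clec4d was most like the cystine transporter gene Slc7a11 (0.962). For Sirpa the nearest gene was Rab35 (0.982), for Fcgr3 Ube2d3 (0.98), for Fcgr2b Tmf1 (0.975) and for Tyrobp Cwc15 (0.958).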

How the data were processed

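RNA was sequenced on an Illumina NovaSeq (single-end, stranded mRNA kit) in 12 libraries of 6 groups. The authors deposited 1 table of FPKM per library. The submitters' processing notes name TopHat2 2.1.1, Bowtie2 2.2.8, SAMtools 0.1.18, Cuffdiff 2.2.1 and the build mm10, with no role for each. The annotation and the use of strand in counting are not given in the sources used here. Groups and replicate numbers came from the labels.

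FPKM was tested as log2(FPKM + 1) with limma 3.58.1 in R 4.3.3 (eBayes with trend), on genes that reached 1 FPKM in 2 or more libraries of the fit: 11078 in M-MDSCs, 11184 in PMN-MDSCs and 11662 in all 12 libraries. The 6 libraries of a subset shared a model. Subset comparisons and interactions used all 12 libraries. Genes were called at a Benjamini-Hochberg adjusted p under 0.05 and a fold change above 1.5, the study's thresholds. Its tool works on counts, which were not used here, so no count test was run. The procedure was tested on simulated data.

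The 10 genes, the 4 companion lists and the cell type markers were chosen with earlier results of these data known. From each companion list, the text names up to 3 called genes with the largest rise and the largest fall per comparison, where the higher group averaged 5 FPKM or more and the groups did not overlap. Not every gene that met this rule is named. Under older symbols, 4 listed genes were found, and Sirpb1c and the markers Ly6g, Ighm and Hbb-bt were not analysed here. Coordinates are from GENCODE M21 (GRCm38) and promoters from RefSeq (GRCm38.p6). FPKM files give no interval for a single value, so precision rests on the 2 libraries a group. The number of reads could not be taken from the files exactly: 68.9% to 77.2% of low values lay near whole reads.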

Additional observations from a re-analysis of the deposited data

Results flagged for a closer look

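The response to treatment differed between the subsets in 5 results, by an interaction term in limma over all 12 libraries. Of all genes, 8.65% were called in that direction with MS-275 and 7.31% with CXD101. With MS-275, the log2 change in PMN-MDSCs minus that in M-MDSCs was 1.47 for Fcgr1, 1.25 for Clec4e and 0.80 for Pirb. With CXD101 it was 1.13 for Fcgr1 and 0.83 for Clec4e. Rescaled to the same total, Pirb with MS-275 was at 0.42 and Clec4e with CXD101 at 0.50, both within the fold limit. The vehicle libraries of a subset enter both contrasts, so the results for the 2 inhibitors are not independent. In M-MDSCs both treated libraries of each gene lay below both vehicle libraries in all 5 results. So did those of 43.8% of all genes with MS-275 and 34.4% with CXD101. In PMN-MDSCs the treated libraries of Clec4e lay above vehicle with MS-275 and below it with CXD101.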

How the results depend on the processing

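The alternatives were a pseudocount of 0.1, no filter, a filter at 5 FPKM, median-of-ratios, TPM (each library scaled to the same total, with and without S100a8 and S100a9) and quantile scaling, a replicate block, no trend, other sets of libraries in the model, other fold limits and leaving out each library in turn. Where no value is given for a change, the cause was not tested.

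The number of genes called lower depended mostly on the fold limit. With a limit of 2 it was 3 and 2 in M-MDSCs (MS-275, CXD101; 1.75% and 0.785% of all genes) and 0 in PMN-MDSCs with either inhibitor (4.86% and 2.60%), and without a limit it was 9 and 7 (27.3% and 12.2%), and 6 and 6 (28.5% and 23.9%). In PMN-MDSCs it was 5 with either inhibitor under TPM scaling (32.0% and 28.7%) and 2 with MS-275 under quantile scaling (14.0%). Between the inhibitors in M-MDSCs it was 2 with a pseudocount of 0.1 (1.45% of all genes), 4 without a limit (7.73%), and 0 to 2 when libraries were left out (1.03% to 1.22%); in PMN-MDSCs 1 gene was higher without a limit (0.680%). The interaction calls were 5 (MS-275) and 4 (CXD101) without a limit (15.9% and 12.2% of all genes), and for CXD101 1 with a limit of 2 (2.67%) and 1 under TPM scaling (3.20%). For MS-275 the Pirb call was lost with a limit of 2 (0.80) and under TPM scaling (0.42).

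Signs turned only in comparisons where the gene was not called in FPKM as deposited. Under TPM scaling the PMN-MDSC values became -0.23 (Fcgr3) and -0.25 (Clec4e) with MS-275 and -0.34 (Fcgr3) with CXD101, the MS-275 interactions -0.37 (Clec4d), -0.37 (Tyrobp), -0.24 (Fcgr2b) and -0.20 (Sirpa), the CXD101 interactions -0.16 (Fcer1g) and -0.059 (Fcgr3), and Fcgr3 between inhibitors in M-MDSCs 0.0074. Without S100a8 and S100a9 in the total, the values were -0.10 (Clec4d) and -0.10 (Tyrobp) for the MS-275 interaction, -0.016 (Fcgr3) with CXD101 in PMN-MDSCs, 0.013 (Fcgr3, M-MDSCs), -0.017 (Fcgr2b) and -0.014 (Fcgr4, PMN-MDSCs) between inhibitors, and the median of all genes in the MS-275 interaction moved by -0.114. Under quantile scaling the MS-275 interactions were -0.040 (Clec4d) and -0.35 (Tyrobp), and values between inhibitors 0.041 (Fcgr3, M-MDSCs), -0.011 (Fcgr2b), -0.0018 (Sirpa) and -0.215 (Tyrobp) in PMN-MDSCs.

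Leaving out libraries gave ranges across 0 between inhibitors for Clec4d (-0.13 to 0.21), Clec4e (-0.19 to 0.077), Fcgr3 (-0.076 to 0.00031) and Fcgr4 (-0.0032 to 0.10) in M-MDSCs and for Fcgr2b (-0.051 to 0.070), Fcgr4 (-0.041 to 0.066) and Sirpa (-0.013 to 0.077) in PMN-MDSCs. It did so for Fcgr3 with CXD101 in PMN-MDSCs (-0.048 to 0.063), for the MS-275 interactions of Clec4d (-0.16 to 0.19), Fcgr4 (-0.22 to 0.029) and Tyrobp (-0.010 to 0.058), and for the CXD101 interactions of Fcgr2b (-0.11 to 0.071) and Fcgr4 (-0.18 to 0.067).

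Replicate numbers did not mark shared animals in the labels, and deviations of same-numbered libraries correlated at -0.126 to 0.179, so they were not treated as pairs. With the replicate number as a block, 1 of the 10 genes was called higher and 5 lower with MS-275 in M-MDSCs, as without it, and 90 of 90 results for single genes kept their side of the thresholds; over all genes the calls went from 1123 and 811 to 1119 and 814.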

Other observations

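Marker lists of cell types outside the 2 sorted gates were measured in the same libraries, as summed FPKM. Of 11 T and NK cell markers, 1 was tested in M-MDSCs and 2 in PMN-MDSCs, and 1 gene, Nkg7, made up 95.6% to 98.8% of their sum in M-MDSC libraries and 57.2% to 92.6% in PMN-MDSC libraries. Nkg7, which encodes a granule protein of cytotoxic cells, was at 6.01 and 9.19 FPKM in vehicle M-MDSCs, 66.3 and 72.7 with MS-275, and 27.9 and 37.9 with CXD101. In PMN-MDSCs it was at 1.10 and 1.70, 40.2 and 41.7, and 26.5 and 33.6. The other 10 markers summed to at most 1.64 in any M-MDSC library and 4.69 in any PMN-MDSC library, and Ncr1 and Gzma were listed at 0 in all 12 libraries. Dendritic cell markers fell, with 6 of 6 tested genes called lower in PMN-MDSCs with either inhibitor, and 3 of 5 and 5 of 5 in M-MDSCs with MS-275 and CXD101. Eosinophil markers rose in M-MDSCs, where 4 of 6 tested genes were called higher with MS-275 and 5 of 6 with CXD101, and their sum went from 160.5 and 197 with vehicle to 377 to 419 with treatment. Higher calls there made up 10.1% and 5.14% of all genes. In PMN-MDSCs 1 of 7 eosinophil markers was called higher and 1 lower with either inhibitor. Mast cell and basophil markers were called higher for 3 and 2 of 5 in M-MDSCs. In PMN-MDSCs 1 was higher and 5 of 7 were lower with MS-275, and 1 was higher and 0 lower with CXD101. All genes tested in PMN-MDSCs were called higher for 14.6% with MS-275 and 11.9% with CXD101.

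B cell markers summed to 6.0 to 14.4 and erythroid markers to at most 0.873 in any library. Of the hepatocyte and tumor markers, Trf, the transferrin gene, made up 83.8% to 99.2% of the sum in every library, and was at 38.8 to 62.7 FPKM in M-MDSC libraries and at 155 and 161 with vehicle and 230.4 to 270.5 with treatment in PMN-MDSC libraries. The other 8 genes of that list summed to at most 7.83 in any library, with Krt18 at 5.54 and 5.73 in M-MDSCs with MS-275. The list of M-MDSC markers summed to 2000 and 2072 in vehicle M-MDSCs and 2706 to 3190 in treated ones, and to 1696 and 1714, and 2578 to 2884, in PMN-MDSCs. In M-MDSCs 8 of them were tested, with 3 called higher and 1 lower with MS-275 and 2 and 1 with CXD101. In PMN-MDSCs 9 were tested, with 2 higher and 2 lower with either inhibitor. Ly6c2 rose in both subsets and Csf1r fell in both. Csf1r was at 145 to 160 FPKM with vehicle in PMN-MDSCs, 59.9 to 64.1 with MS-275 and 71.4 to 72.4 with CXD101. Its fall was smaller in M-MDSCs, from 122.7 to 123.4 to 94.9 to 97.1 and 103 to 104. Cd14 fell in M-MDSCs, from 23.9 to 28.2 FPKM to 8.36 to 11.3 and 11.1 to 11.8. It was higher with treatment in PMN-MDSCs, at 144 to 171 and 126 to 128 beside 109 to 122 with vehicle. Fn1 rose in M-MDSCs with MS-275, from 97.4 to 98.3 to 220 to 250. The part of these cell types in the receptor results was not tested.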
